A study of Mus musculus with 3 samples.

Results

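The 9 genes described here encode RNA-binding proteins that decide how long inflammatory mRNAs last: the tristetraprolin family (Zfp36, Zfp36l1, Zfp36l2), the regnases Zc3h12a and Zc3h12c, the roquins Rc3h1 and Rc3h2, and Elavl1 and Khsrp, which bind AU-rich sequences. They were taken by symbol from the 55536 annotated genes of the series, and all 9 had values in each library. The samples were primary macrophages grown from bone marrow of C57BL/6J mice, in 1 group of 3 libraries that the labels number as biological replicates 1, 2 and 3. The cells received Lipid A, the TLR4-activating part of bacterial lipopolysaccharide, at 100 ng/ml for 12 h, spent 12 h without it and met it again at 100 ng/ml for 15 min. RNA attached to chromatin was isolated, depleted of ribosomal RNA and sequenced, starting from 1 µg of RNA in replicate 1, 250 ng in replicate 2 and 500 ng in replicate 3. All 3 libraries carry 1 donor identifier, age and sex were not collected, and no untreated or singly treated group was analysed here. The spread between libraries may therefore be partly technical, and nothing below compares conditions.

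Proteins of the tristetraprolin family clasp AU-rich elements in 3′ untranslated regions with a pair of zinc fingers and recruit the CCR4-NOT deadenylase, which shortens the poly(A) tail before the cap is removed and the mRNA is degraded. Regnase 1, the product of Zc3h12a, is an endonuclease that cuts stem-loops of inflammatory mRNAs, and roquins bind stem-loops of the same kind and bring in deadenylases. HuR, the product of Elavl1, is known for stabilising AU-rich mRNAs, whereas KSRP, the product of Khsrp, promotes their decay. In macrophages these factors limit the output of cytokines such as TNF, and several of their own mRNAs are unstable and induced by inflammatory signals. RNA on chromatin includes transcripts still being made, so the values describe RNA at the gene and not the cytoplasmic mRNA or the protein.

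The expected counts, which are the reads the authors' quantification assigned, totalled 14609979, 17423948 and 24162551 in replicates 1, 2 and 3. Rows of no gene, included in these totals, held 1.24, 0.482 and 0.228% of them. In the read-based table the estimated counts totalled 23135627, 30418666 and 40940944. By expected counts, 15873 genes passed the threshold for detection, a mean of 10 or more. Of these, 11745 were protein-coding. The 7 macrophage markers examined, among them Csf1r and Adgre1, all averaged 1 TPM or more (TPM is a length-scaled share of a library), with a summed level between 821 and 922 TPM in a library. Of 27 markers of neutrophils, dendritic cells, lymphocytes, stromal, erythroid and mast cells, 1 reached that level in the gene table and 6 in the read-based table, where the 27 summed to 12.7 to 14.7 TPM in a library, against 3.27 to 4.60 in the gene table. In bulk RNA, fewer cells of a type and less RNA per cell cannot be told apart.

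The mean of each of the 9 genes was 1 TPM or more, as was that of 90.0% of the detected protein-coding genes. All 9 also exceeded 10 TPM on average in the gene table, and 5822 of the 11745 detected protein-coding genes averaged 10 TPM or more. With protein-coding transcripts alone, Elavl1 (7.75 TPM) and Khsrp (9.78 TPM) were below 10 TPM. The median of the 9 was 4.54 ± 0.20 on the log2(TPM + 1) scale (SD, n = 3), against 3.43 ± 0.03 for the detected protein-coding genes. In the gene table Zfp36 stood highest, followed by Rc3h2, Zfp36l2 and Rc3h1, and the libraries of each of these did not overlap those of the next. From Rc3h1 downward, through Zfp36l1, Zc3h12a, Elavl1, Khsrp and Zc3h12c, the libraries of neighbouring genes overlapped, so their ranges do not resolve the order of neighbours. Taken within a library, Zfp36l1 exceeded Zc3h12a, and Zc3h12a exceeded Elavl1, in 3 of 3 libraries, and the other neighbours did not keep 1 order. The lowest library of Rc3h1 (24.0 TPM) lay above every library of Elavl1, Khsrp and Zc3h12c. The ranking depended on the table. Over 10505 protein-coding genes of at least 1 TPM in both, the log2 ratio of read-based to gene-table TPM had a median of 0.37, with quartiles of 0.04 and 0.79. This ratio was 0.92 ± 0.15 for Zc3h12a, but -0.47 for Zfp36, -0.55 for Zfp36l1 and -0.41 for Zfp36l2. It lay between -0.22 (Zc3h12c) and 0.07 (Rc3h2) for the remaining genes. In the read-based table the means of Zfp36 (77.1 TPM) and Rc3h2 (64.2) were followed by Zc3h12a (40.0), Rc3h1 (25.8) and Zfp36l2 (24.9), and the libraries of Zfp36, from 54.3 to 89.9 TPM, overlapped those of Rc3h2, from 59.4 to 70.3. With protein-coding transcripts alone Rc3h2 was at rank 5, at 17.8 TPM.

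**Figure D1:**
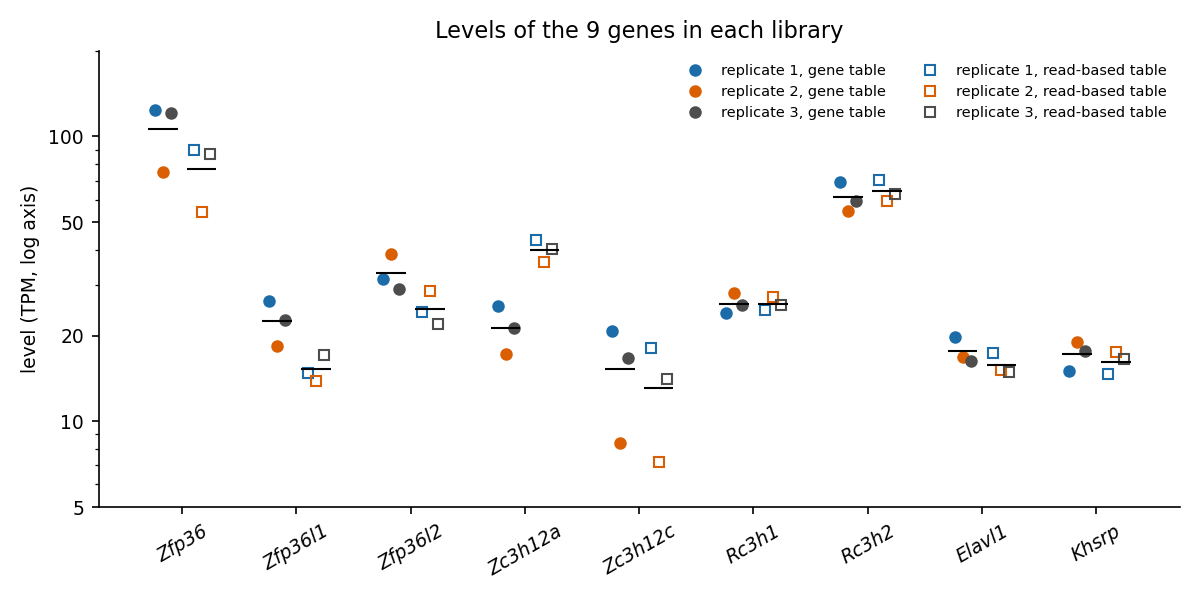
Level of each gene (TPM, log axis) in replicates 1, 2 and 3 in the gene table (filled circles) and in the read-based table (open squares), with the mean as a bar. Zfp36 has the highest mean in both tables but lies below Rc3h2 in replicate 2 of the read-based table, Zc3h12a is higher in the read-based table in each library, and Zc3h12c has the widest gap between libraries, from 8.40 to 20.8 TPM in the gene table.

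Zfp36 (ENSMUSG00000044786.6, chromosome 7, 28376784 to 28380253, minus strand, mm10) encodes tristetraprolin, the founding member of its family. Its level was 124, 75.2 and 121 TPM in replicates 1, 2 and 3, a mean of 107 ± 27.2 (SD, n = 3) that placed it at rank 522 of the 11745 detected protein-coding genes. Replicates 1 and 3 lay close together and replicate 2 lay well below them. The expected counts behind these values were 3545, 2656 and 5435, at which counting error is small beside this gap. In the read-based table, which quantifies the same reads without the alignments, the level was 77.1 ± 19.8 TPM and the shape over libraries was the same, with 89.9, 54.3 and 87.1 TPM.

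Zfp36l1 (ENSMUSG00000021127.7, chromosome 12, 80107754 to 80113013, minus strand) and Zfp36l2 (ENSMUSG00000045817.8, chromosome 17, 84183931 to 84187947, minus strand) are the relatives of tristetraprolin that act broadly in development and in blood cells. Zfp36l1 had 26.3, 18.4 and 22.7 TPM in replicates 1, 2 and 3, a mean of 22.5 ± 3.96. Zfp36l2 had 31.5, 38.8 and 29.04 TPM, a mean of 33.1 ± 5.08. Replicate 2 was thus the lowest library for Zfp36l1 and the highest for Zfp36l2.

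Within a library, Zfp36 exceeded Zfp36l1 by 2.17 ± 0.20 on the log2(TPM + 1) scale, and by 4.70 ± 0.62 times in TPM. Zfp36 exceeded Zfp36l2 by 1.94, 0.94 and 2.02 on the log2 scale in replicates 1, 2 and 3, a mean of 1.63 ± 0.60. Zfp36l1 lay below Zfp36l2 in each library, with a mean difference of -0.54 ± 0.43. Each of these 3 differences had the same sign in 3 of 3 libraries, and the exact two-sided sign-flip test gave p = 0.25, the smallest value that 3 libraries allow. The gap of Zfp36 to Zfp36l2 in replicate 2 was smaller than in either other library, since the level of the first was low there and that of the second high.

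Tristetraprolin binds the heptamer TATTTAT, written here in DNA letters, and the shorter core ATTTA lies inside it. The 3′ untranslated regions of the family's own transcripts hold such motifs. In the leading coding transcript of each gene, Zfp36 had 3 copies of TATTTAT in 767 bases after the stop codon, Zfp36l1 had 3 in 1835 and Zfp36l2 had 3 in 1822. Among detected protein-coding genes with a 3′ untranslated region within 25% of the same length, 1.22% of 1720 held at least as many as Zfp36, 3.802% of 2078 as many as Zfp36l1 and 3.76% of 2074 as many as Zfp36l2. Elavl1 had 8 copies in 4218 bases, a number reached by 0.201% of 994 genes. Each set of similar length counts the gene itself. Rc3h2 had 3 copies in 5160 bases, Zc3h12c 2 in 4062 and Rc3h1 2 in 7181, numbers reached by 15.0, 26.6 and 42.8% of genes of similar length, while no copy was found in the regions of Zc3h12a (856 bases) and Khsrp (1642 bases). The densest window of 30 bases in 4 of these regions is shown, on the strand of the gene, because it is the kind of sequence these proteins read, with each ATTTA in capitals. The windows lie in mm10 at chr7:28376962-28376991, chr12:80108428-80108457, chr17:84184914-84184943 and chr8:4285777-4285806, all on the minus strand and each within 1 exon. A match is a run of letters and not a measured binding site.
Zfp36: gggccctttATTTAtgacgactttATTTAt
Zfp36l1: ATTTAacttatcaaaacgtATTTAttgcca
Zfp36l2: aactATTTAacttATTTAttatcttgtgaa
Elavl1: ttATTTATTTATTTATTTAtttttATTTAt

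The Zfp36 window holds 2 separate heptamers, and that of Elavl1 holds 5 that partly overlap. In the windows of Zfp36l1 and Zfp36l2, 1 heptamer stands beside a second ATTTA core.

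Zc3h12a (ENSMUSG00000042677.7, chromosome 4, 125118423 to 125127840, minus strand), the gene of the endonuclease regnase 1, had 25.4, 17.2 and 21.3 TPM in replicates 1, 2 and 3, a mean of 21.3 ± 4.10. Replicate 1 was highest and replicate 2 lowest. Zc3h12c (ENSMUSG00000035164.8, chromosome 9, 52111344 to 52168572, minus strand), a second regnase gene, had 20.8, 8.40 and 16.7 TPM, a mean of 15.3 ± 6.32. Its lowest library again was replicate 2, far below the others, and the highest exceeded the lowest 2.48 times. Zc3h12a exceeded Zc3h12c by 0.28, 0.95 and 0.34 in replicates 1, 2 and 3, a mean of 0.52 ± 0.37 in log2(TPM + 1) (exact two-sided sign-flip p = 0.25). The difference was positive in 3 of 3 libraries and widest in replicate 2.

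That distance between the regnases depended on the quantification. In the read-based table Zc3h12a had 43.5, 36.2 and 40.4 TPM, a mean of 40.0 ± 3.64, and Zc3h12c had 13.1 ± 5.51, so the difference was 1.62 ± 0.50 on the log2 scale. Counting protein-coding transcripts alone, an alternative chosen after seeing the data, brought Zc3h12a to 15.2 ± 2.31 and Zc3h12c to 15.3 ± 6.31 TPM, and the difference to 0.07 ± 0.45, positive in 1 of 3 libraries. The transcript that moves these values is Zc3h12a-202, annotated as a retained intron form of 660 bases beside the coding Zc3h12a-201 of 2755 bases. It held 7.72, 4.10 and 6.46 TPM in replicates 1, 2 and 3 in the alignment-based transcript table and a mean of 22.8 ± 2.49 TPM in the read-based one. As shares of the gene's TPM these are 28.2 ± 3.75% and 57.0 ± 1.10%, and as shares of the gene's counts they are 6.23 ± 1.23% and 19.1 ± 0.65%. Because TPM divides by length, reads on a short form weigh more heavily in a gene's summed level than reads on a long one.

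Rc3h1 (ENSMUSG00000040423.10, chromosome 1, 160906418 to 160974978, plus strand) encodes roquin 1, known for repressing Icos and Tnf mRNAs, and Rc3h2 (ENSMUSG00000075376.10, chromosome 2, 37370069 to 37422903, minus strand) its close relative roquin 2. Rc3h1 had 24.0, 28.1 and 25.5 TPM in replicates 1, 2 and 3, a mean of 25.9 ± 2.09. Rc3h2 had 69.3, 54.9 and 59.2 TPM, a mean of 61.1 ± 7.37. Rc3h2 was the higher of the pair in 3 of 3 libraries, and its lowest library lay far above the highest of Rc3h1. The difference of Rc3h1 from Rc3h2 was -1.20 ± 0.28 on the log2(TPM + 1) scale (exact two-sided sign-flip p = 0.25), and -1.28 ± 0.19 in the read-based table.

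The excess of Rc3h2 lay in forms that are annotated as retained introns. Its 5 transcripts of that type held 70.7 ± 1.02% of the gene's TPM in the alignment-based table, 67.1 ± 2.75% by the read-based quantification and 38.8 ± 0.79% of its expected counts. The 4 long ones, Rc3h2-206, Rc3h2-207, Rc3h2-209 and Rc3h2-210, are 2236 to 3479 bases long, of which 1930 to 3173 bases lie outside the exons of the gene's coding transcripts. Their levels were 7.40 ± 0.73, 8.83 ± 0.23, 10.2 ± 1.08 and 10.01 ± 1.28 TPM. These are near to one another, and in each library each was below the coding form Rc3h2-201, which had 12.4 ± 1.88 TPM. In the read-based table Rc3h2-202 was the leading coding form, with 10.9 ± 0.69 TPM against 1.12 ± 0.77 for Rc3h2-201. There Rc3h2-207 had the highest mean of all forms, 11.4 ± 0.59 TPM, and the processed transcript Rc3h2-204, at 0 in the alignment-based table, held 7.83 ± 2.75% of the gene's TPM.

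When protein-coding transcripts alone were counted, Rc3h1 had 18.6, 22.3 and 20.9 TPM in replicates 1, 2 and 3, and Rc3h2 had 20.0, 15.4 and 18.1 TPM. The means were 20.6 ± 1.85 and 17.8 ± 2.28, and the sign of the difference turned, to 0.20 ± 0.30, with Rc3h1 the higher gene in 2 of 3 libraries. The introns of Rc3h1 are counted differently from those of Rc3h2, because 3 stretches of them are annotated as genes of their own. Gm37052, Gm37809 and Gm37653, given the provisional type TEC by the annotation, lie inside Rc3h1 on the same strand and touch none of its exons. They had 14.6, 11.1 and 12.1 TPM on average, and summed to 37.8, 36.2 and 39.2 TPM in replicates 1, 2 and 3. With these 3 genes added, Rc3h1 reached 63.6 ± 1.56 TPM, beside the 61.1 ± 7.37 TPM of Rc3h2, and the difference was 0.06 ± 0.20. Both of these ways of counting were chosen after seeing the data.

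Within Rc3h1 itself, the long coding form Rc3h1-202 (11006 bases) held 16.98, 15.7 and 16.0 TPM in replicates 1, 2 and 3. The shorter coding form Rc3h1-201 (3476 bases) was at 1.64, 6.62 and 4.94 TPM. In that table the long form was steady over the libraries and the short form was low in replicate 1. The read-based table put more of the gene on the short form, with 7.64, 11.1 and 9.04 TPM, and again had it lowest in replicate 1. The retained intron form Rc3h1-203 held 20.5 ± 2.22% of the gene's TPM and 1.18 ± 0.15% of its counts.

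Elavl1 (ENSMUSG00000040028.10, chromosome 8, 4285382 to 4325413, minus strand) had 19.7, 16.8 and 16.2 TPM in replicates 1, 2 and 3, a mean of 17.6 ± 1.89. Khsrp (ENSMUSG00000007670.10, chromosome 17, 57021051 to 57031522, minus strand) had 15.0, 19.1 and 17.7 TPM, a mean of 17.3 ± 2.04. The gene of the stabilising HuR was the higher one in replicate 1 and the lower one in the other libraries. The difference in log2(TPM + 1) was 0.37, -0.17 and -0.12 in replicates 1, 2 and 3, a mean of 0.03 ± 0.30 (exact two-sided sign-flip p = 1). With protein-coding transcripts alone, Elavl1 was below Khsrp in each library, at 7.75 ± 0.59 against 9.78 ± 0.59 TPM, a difference of -0.30 ± 0.17 (exact two-sided sign-flip p = 0.25). Elavl1 overlaps Ccl25, a chemokine gene on the opposite strand with a mean of 34.5 TPM, over 204 bases. The sources used here do not say if counting was strand-specific, so reads of the shared bases could belong to either gene.

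**Figure D2:**
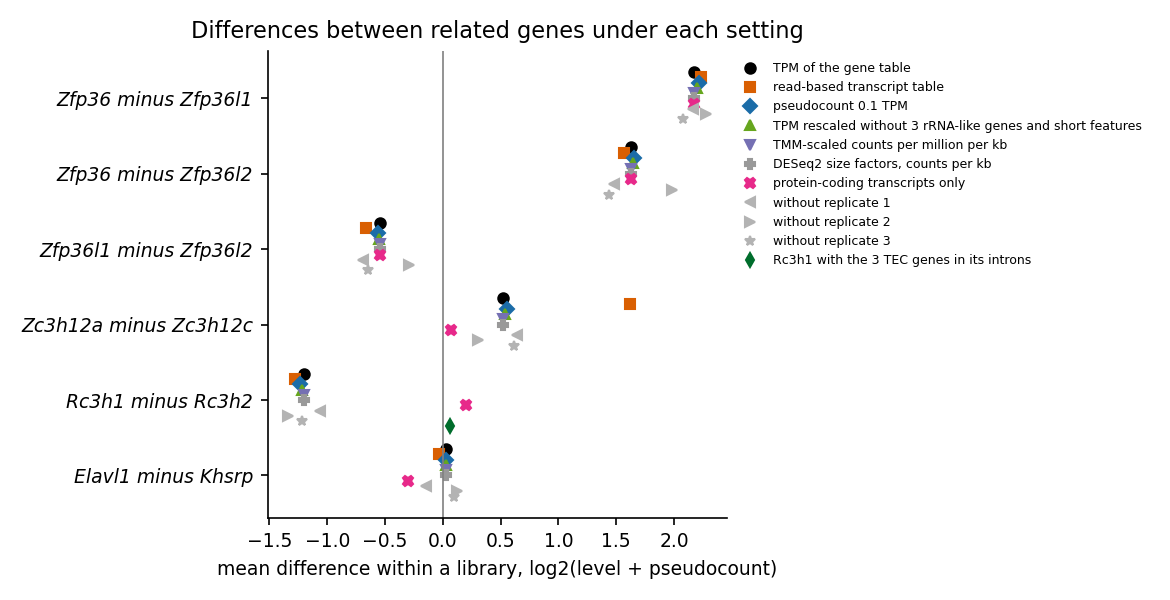
Mean difference between related genes within a library (log2 scale) under each way of scaling, counting or leaving out a library. The 3 differences of the Zfp36 family stay on their side of 0 at every point, Rc3h1 minus Rc3h2 moves from -1.20 to 0.20 with protein-coding transcripts alone, and Zc3h12a minus Zc3h12c moves from 0.52 to 1.62 in the read-based table.

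Annotated transcript types divided the 9 genes. Zfp36, Zfp36l1, Zfp36l2 and Zc3h12c have coding transcripts only, and the other 5 genes have at least 1 retained intron form. Its share of the gene's TPM in the alignment-based table ran from 20.5 ± 2.22% for Rc3h1 over 28.2 ± 3.75% for Zc3h12a, 43.0 ± 5.96% for Khsrp and 55.8 ± 1.55% for Elavl1 to 70.7 ± 1.02% for Rc3h2. Over the 6564 detected genes with several exons and such a form, the median share was 46.8%, with quartiles of 30.3 and 62.2%. Rc3h2 therefore lay above the upper quartile, Rc3h1 and Zc3h12a below the lower one, and Elavl1 and Khsrp between them. In the read-based table, with a median of 45.3% and quartiles of 28.5 and 62.0%, Rc3h2 and Rc3h1 lay as before, but Zc3h12a at 57.0% was above the median. Of the expected counts, retained intron forms held much less: 1.18% for Rc3h1, 6.23% for Zc3h12a, 8.62 ± 1.04% for Khsrp, 33.2 ± 2.00% for Elavl1 and 38.8% for Rc3h2.

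**Figure D3:**
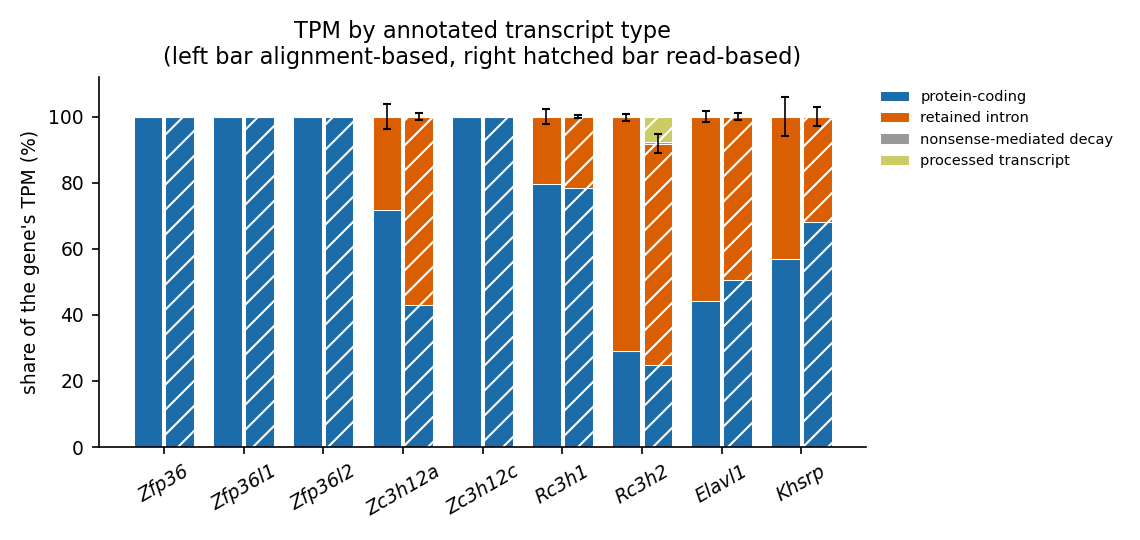
Share of each gene's TPM (%) by annotated transcript type, as the mean of 3 libraries, in the alignment-based table (left, plain bars) and the read-based table (right, hatched bars). Error bars give the SD of the retained intron share, which is largest for Rc3h2 in both tables and changes most between tables for Zc3h12a, from 28.2 to 57.0%.

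Elavl1-202, a single-exon form of 4808 bases with 4557 of them outside the coding exons, had 4.06 ± 0.19 TPM and the coding Elavl1-201 had 7.54 ± 0.76 TPM. The short Elavl1-203 (613 bases) had 5.77 ± 1.37 TPM from 37.0, 29.5 and 34.5 expected counts. For Khsrp, the coding Khsrp-201 had 9.40 ± 0.84 TPM, and the short retained intron forms Khsrp-204 and Khsrp-203 had 4.59 ± 1.06 and 2.91 ± 2.90 TPM. Khsrp-203 was at 0, 5.79 and 2.93 TPM in replicates 1, 2 and 3, and without this form the sum for Khsrp would not be lowest in replicate 1.

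Zfp36 has no retained intron form by type, yet its leading transcript runs through the gene's intron. Zfp36-202 is a single exon of 2465 bases that contains the 680 bases spliced out of Zfp36-201, the 2-exon form. Zfp36-202 had 108, 66.6 and 105 TPM in replicates 1, 2 and 3, and Zfp36-201 had 15.5, 8.60 and 16.4 TPM. The single-exon form thus held 87.5 ± 1.05% of the gene's TPM in the alignment-based table and 76.9 ± 1.62% in the read-based table, nearly alike in each library. Over the 120 detected genes with a single-exon coding transcript beside a spliced one, the median share of such forms was 33.9% and 21.7% in these tables. The annotation of Zfp36 limits what this share can say. Zfp36-201 begins 1025 bases upstream of the RefSeq start site and Zfp36-202 begins 27 bases upstream of it, so a spliced RNA from that start site matches neither form.

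The remaining coding genes were carried by 1 form each. Zfp36l1-201 held 20.0, 18.4 and 22.4 TPM in replicates 1, 2 and 3, whereas the 545-base form Zfp36l1-204 held 6.37, 0 and 0.32 TPM. The 26.8 expected counts of that short form in replicate 1 made Zfp36l1 highest there, and in the read-based table the gene was highest in replicate 3, at 17.1 TPM. An antisense gene, Gm26669, covers 4967 bases of Zfp36l1 and had 9.54, 10.8 and 12.4 TPM in replicates 1, 2 and 3. Without known strand use, reads of Zfp36l1 and Gm26669 cannot be told apart with certainty over nearly the whole gene. Zfp36l2 has the single transcript Zfp36l2-201. Zc3h12c-202 held 94.6 ± 5.59% of its gene's TPM in the alignment-based table and 73.2 ± 2.28% in the read-based one, with the remainder in Zc3h12c-201.

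The libraries did not order the 9 genes alike. Replicate 1 was the highest library for 6 of 9 genes, where it was so for 39.4% of all detected genes, replicate 2 for 3 of 9 (28.9%) and replicate 3 for 0 of 9 (31.7%). Replicate 2 was the lowest library for 5 of 9 genes, against 39.3% of detected genes. Zfp36, Zfp36l1, Zc3h12a, Zc3h12c and Rc3h2 shared the order of replicate 1 above 3 above 2, as did 23.7% of detected genes. Zfp36l2, Rc3h1 and Khsrp had their highest level in replicate 2. With protein-coding transcripts alone, Khsrp was instead highest in replicate 3, at 10.4 TPM against 9.60 TPM in replicate 2. The libraries have no order in the design, the amount of starting RNA and the depth differ between them as well, and the part of these in the result was not tested.

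**Figure D4:**
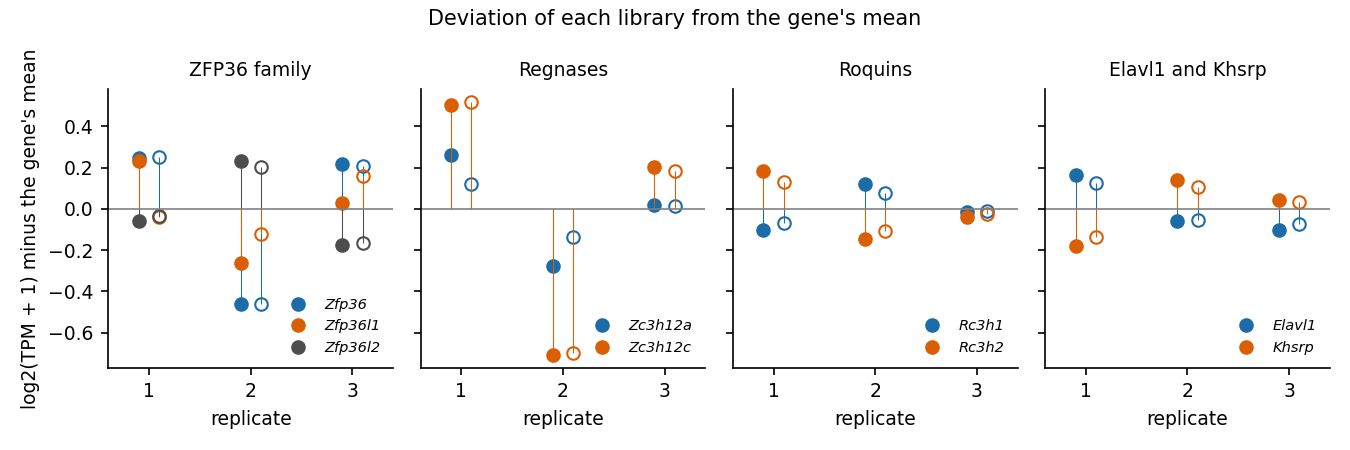
Deviation of each library from the gene's mean, in log2(TPM + 1), for the gene table (filled, left of each tick) and the read-based table (open, right of it). Replicate 2 lies below 0 for Zfp36, Zfp36l1, both regnases and Rc3h2, and above 0 for Zfp36l2, Rc3h1 and Khsrp, in both tables.

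Zc3h12c and Zfp36 varied most between libraries. The SD of log2(TPM + 1) was 0.63 for Zc3h12c and 0.40 for Zfp36, higher than in 98.8% and 92.9% of detected protein-coding genes, whose median SD was 0.16. Zc3h12a and Zfp36l1 followed with 0.27 and 0.25, but in the read-based table they had 0.13 and 0.14. Zfp36l2 had 0.21, Rc3h2 0.17, Khsrp 0.16, Elavl1 0.14 and Rc3h1 0.11, at or near the median. The biological coefficient of variation from edgeR, which allows for counting noise, was 0.260 for Zc3h12c and 0.183 for Zfp36. These were higher than in 91.8% and 67.7% of all 15873 detected genes, whereas the SD was ranked among protein-coding genes only. As edgeR also draws each estimate toward a common trend, the lower rank of Zfp36 by this measure is not directly comparable. The other 7 had between 0.118 and 0.150, with a median of 0.157 over detected genes. The spread rested on replicate 2 for both leading genes: without it, the SD of Zfp36 fell to 0.02 and that of Zc3h12c to 0.21.

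Among 5822 protein-coding genes of at least 10 TPM, those nearest in their centred profile over the 3 libraries were named for the 3 genes with the largest SD in the gene table. The place of Zc3h12a as the third of these depended on the measure, since its SD in the read-based table (0.13) and its coefficient of variation (0.141) were below those of Zfp36l2 (0.19 and 0.150). For Zfp36 they were Spdl1, Ap3s1 and Rragc, at a distance of 0.02 to 0.03 on the log2 scale. For Zc3h12c they were Lilr4b (1248, 540 and 1064 TPM in replicates 1, 2 and 3), Nupr1 and Mthfd2, at 0.06 to 0.11. Lilr4b belongs to a family of similar genes between which reads can be divided with error. For Zc3h12a they were Ube2d3, Slc27a1 and Tardbp, at 0.0036 to 0.01. Likeness over 3 libraries is weak, since 217 genes lay within 0.1 of Zc3h12a and 31 within 0.1 of Zfp36, but only 2 within 0.1 of Zc3h12c.

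The promoters were compared in the RefSeq table (GRCm38.p6), which had entries for 8 of the 9 genes and not for Zfp36l2. In the 250 bases before each start site, both strands were searched for the GC box GGGCGG, the TATA motif TATAAA, the AP-1 motif TGANTCA, the cyclic AMP response element TGACGTCA, the interferon response element core, the CArG box bound by serum response factor and the NF-kB consensus. The GC box was in 5 of 8 genes and in 32.7% of all 32851 promoters. The AP-1 motif was in Zfp36l1 and Rc3h1 and in 6.75% of all promoters, and the TATA motif was in Zfp36l1 and in 12.4% of them. A CArG box was in Zfp36 alone of the 8, and in 1.47% of all promoters. The NF-kB consensus was in the first of 2 entries of Zc3h12c and in 9.55% of all, while the cyclic AMP element (1.55%) and the interferon element core (2.98%) were in none of the 8. Elavl1, Rc3h2 and the second entry of Zc3h12c held none of the 7 motifs. Not all stretches lie upstream of the annotated transcripts. Elavl1-201 begins 313 bases upstream of the RefSeq start site, so the whole Elavl1 stretch lies within its span, as that of Zfp36 does within Zfp36-201. Zc3h12c-202 begins 166 bases upstream of the first Zc3h12c entry's start site and 19209 bases upstream of the second's. Of the 5 genes with the shared library order, no motif was found in all. The stretches of Zfp36 (chr7:28379229-28379478), Zfp36l1 (chr12:80113014-80113263) and Zc3h12c (chr9:52168407-52168656), all on the minus strand, are shown for their different motifs, with every match other than the GC box in capitals.
Zfp36: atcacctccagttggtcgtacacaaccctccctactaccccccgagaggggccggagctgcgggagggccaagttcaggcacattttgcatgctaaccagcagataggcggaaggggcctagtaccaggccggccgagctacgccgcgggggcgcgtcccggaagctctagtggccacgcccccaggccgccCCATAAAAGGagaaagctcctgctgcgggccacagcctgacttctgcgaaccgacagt
Zfp36l1: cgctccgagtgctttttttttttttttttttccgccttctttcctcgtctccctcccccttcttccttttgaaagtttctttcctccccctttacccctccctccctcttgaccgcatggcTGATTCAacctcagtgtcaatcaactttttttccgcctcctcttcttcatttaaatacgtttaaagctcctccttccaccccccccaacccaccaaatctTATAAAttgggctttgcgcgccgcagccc
Zc3h12c: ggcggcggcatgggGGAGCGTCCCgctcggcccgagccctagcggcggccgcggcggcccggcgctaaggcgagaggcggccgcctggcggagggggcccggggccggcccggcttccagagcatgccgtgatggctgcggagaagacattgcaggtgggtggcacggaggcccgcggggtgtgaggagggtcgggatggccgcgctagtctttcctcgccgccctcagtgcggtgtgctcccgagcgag

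The capitals mark the CArG box of Zfp36, whose first base lies 58 bases before the start site. In Zfp36l1 they mark the AP-1 pattern, matched as TGATTCA, and the TATA motif, 129 and 29 bases before the start site. In Zc3h12c they mark the NF-kB pattern, matched as GGAGCGTCCC, 236 bases before the start site. GC content of these stretches differed widely, at 64.8% for Zfp36, 48.4% for Zfp36l1 and 76.4% for Zc3h12c, against a median of 52.4% over all promoters. A match is a description of letters and not of a factor's binding.

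Other members of the same families were mostly near 0. Of Zfp36l3, Zc3h12b, Zc3h12d, Elavl2, Elavl3 and Elavl4, only Zc3h12d, a regnase gene known from immune cells, reached 1 TPM, with 19.1, 17.1 and 18.0 TPM in replicates 1, 2 and 3 (18.1 ± 0.98). Its mean lay between those of Zc3h12a and Zc3h12c and it varied less between libraries. Zc3h12b had 0.61 ± 0.07 TPM, Zfp36l3, Elavl2, Elavl3 and Elavl4 had means of 0.0333, 0.0133, 0.0367 and 0.00667 TPM, and Elavl3 reached 0.575 ± 0.178 in the read-based table.

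Chromatin RNA of the machinery that these proteins recruit was measured as well. All 13 genes of the CCR4-NOT list, which holds Tob genes beside the Cnot genes, averaged 1 TPM or more, as did 90.0% of detected protein-coding genes. The median of this list was 4.63 ± 0.07 on the log2(TPM + 1) scale. Cnot1, the scaffold that tristetraprolin and roquin proteins bind, led at 81.3 ± 1.00 TPM and was nearly equal in the 3 libraries. Cnot2 followed at 31.0 ± 2.95, and Tob1, not a Cnot gene, was lowest of the list at 2.23 ± 0.10. Of the other deadenylases, Pan3 had 190 ± 20.8, Pan2 12.2 ± 0.37 and Parn 9.64 ± 0.55 TPM. All 18 genes of decapping and 5′ decay reached 1 TPM, with a median of 3.86 ± 0.04. The exonuclease gene Xrn1 led them at 82.6 ± 13.5, then Gigyf2, whose product links tristetraprolin to translational repression, at 59.3 ± 1.16, and Lsm1 was lowest at 2.93 ± 1.21 TPM.

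Other proteins that bind AU-rich elements or stem-loops were higher than the 9 genes by their median, at 5.71 ± 0.18 for 12 genes. All 12 averaged above 1 TPM, beside 90.0% of detected protein-coding genes at 1 TPM or more. Tia1 had 94.0 ± 4.86, Hnrnpd (AUF1) 87.1 ± 11.7 and Mex3b, the lowest, 2.04 ± 0.32 TPM. Kinases, phosphatases and 14-3-3 genes that control tristetraprolin had a median of 4.95 ± 0.18 over 11 genes. Mapk14, the p38 kinase gene upstream of its phosphorylation, had 56.7, 59.8 and 47.8 TPM in replicates 1, 2 and 3. The p38 phosphatase gene Dusp1 had 43.8, 43.9 and 65.7 TPM, so that it was highest in replicate 3, unlike Zfp36, and Mapk11 was lowest at 1.55 ± 0.49. The 9 genes for regnase control and partners had a median of 5.45 ± 0.09. Tbk1 had 165 ± 20.2, Malt1, the protease that cleaves regnase 1 and roquins, 122 ± 27.9 and Fbxw11, a ligase subunit for regnase 1, 12.7 ± 3.23 TPM.

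Transcripts known as targets of these factors had a median of 3.44 ± 0.42, near the 3.43 ± 0.03 of detected protein-coding genes. The median of the targets includes those that were not detected. Of the 18 targets, 16 were detected, and 14 of these reached 1 TPM, beside 90.0% of detected protein-coding genes. Tnf, the classic target of tristetraprolin, had 177, 51.6 and 74.2 TPM in replicates 1, 2 and 3, a mean of 101 ± 66.7. Replicate 1 stood far above the others, whereas Zfp36 was nearly as high in replicate 3 as in replicate 1. Tfrc, a target of regnase 1, had 61.8, 83.7 and 77.0 TPM. Csf2 had 0 expected counts in all 3 libraries (the upper limit of its share in replicate 1 is 2.05e-05% of the counts), and 0.238 ± 0.140 TPM in the read-based table. Replicate 1 was the highest library for 10 of 16 detected targets, 10 of 18 decapping genes, 9 of 12 other binding proteins and 6 of 13 genes of the CCR4-NOT list. It was so for 4 of 11 kinase, phosphatase and 14-3-3 genes, 3 of 9 regnase control genes and 1 of 3 PAN and PARN genes, and for 36.7% of detected protein-coding genes.

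**Figure D5:**
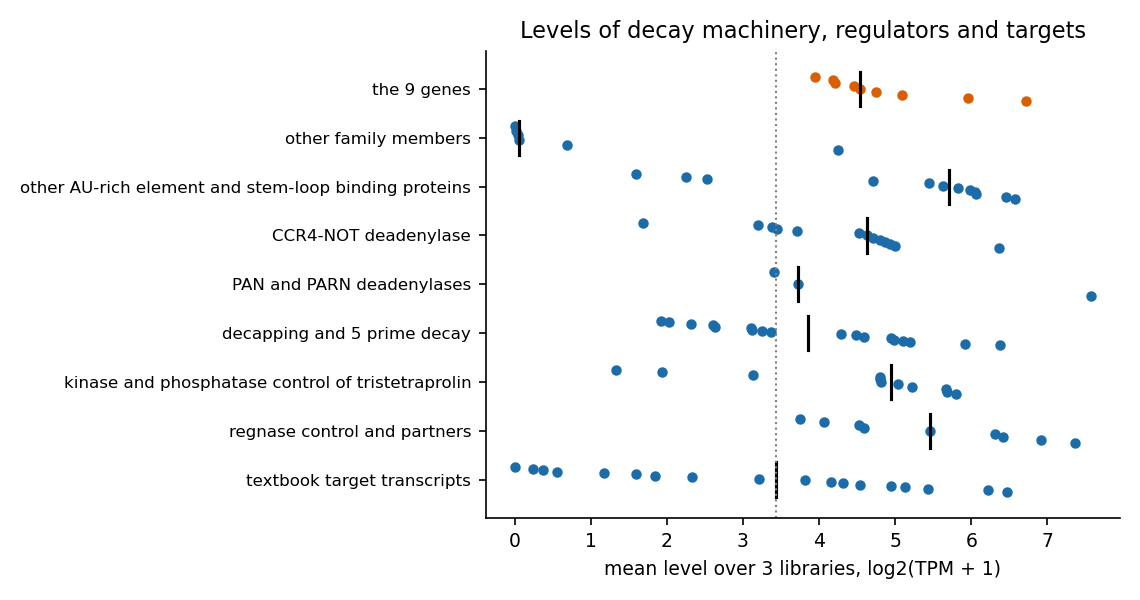
Mean level over 3 libraries, log2(TPM + 1), of each gene in the 9 gene lists, with the list median as a bar and the median of detected protein-coding genes (3.43) as a dotted line. The 9 genes all lie above the dotted line, the other members of their families lie near 0 except Zc3h12d, and the target transcripts spread from 0 to the level of Tnf.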

How the data were processed

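Total RNA of the chromatin fraction was measured in 3 libraries of 1 group. Per the file headers and the deposited README files, the authors computed the expected counts and TPM of the gene table, and of a matching transcript table, from transcriptome alignments (mm10, GENCODE M21). The read-based transcript table holds estimated counts and TPM made directly from reads by the authors. Tools, versions and strand use are not given in the sources used here. TPM scales each library to 1 total, so a few abundant or short RNAs lower all others.

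Symbols were matched through the transcript identifiers. Differences used log2(TPM + 1) within a library and an exact sign-flip test over libraries. Expected counts were rounded for edgeR 4.0.16 (TMM scaling, intercept-only dispersion) and for the size factors of DESeq2 1.42.0 (R 4.3.3). Python 3.11.15 with pandas 2.3.3 and numpy 2.4.6 did the rest. The count steps were tested on simulated data. Rows of no gene (1.24, 0.482 and 0.228% of counts) were left out, except from the totals of expected counts. The 9 genes and all lists were chosen with earlier results of these data known. The rule for named genes took the 2 highest and the lowest member of each list, all of the other family members, the 3 nearest profiles of the 3 genes with the largest SD, and the 2 leading transcripts per gene and table. The 3′ untranslated regions, the protein-coding count, the TEC genes and individual shorter forms were examined after seeing the data. Windows and upstream stretches come from GENCODE M21 transcripts and RefSeq promoters. Limits from 0 counts (3 counts of the total) cover counting error only. Protein sequences were not analysed here.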

Additional observations from a re-analysis of the deposited data

How the results depend on the processing

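No paired comparison of conditions was possible because the series has 1 group, and only differences between genes were taken within a library. With 3 libraries no test could pass a threshold, so stability here means direction only. The differences of Zfp36 to Zfp36l1, Zfp36 to Zfp36l2 and Zfp36l1 to Zfp36l2 kept their sign under all alternatives run. Zc3h12a minus Zc3h12c kept a positive mean, but with protein-coding transcripts only it was 0.07 ± 0.45 and positive in 1 of 3 libraries, so its direction did not hold there. Rc3h1 minus Rc3h2 turned from -1.20 to 0.20 with protein-coding transcripts only and to 0.063 with the TEC genes in its introns. Elavl1 minus Khsrp turned from 0.03 to -0.036 in the read-based table and to -0.30 with protein-coding transcripts only. Leaving out 1 library gave ranges of 2.08 to 2.27, 1.44 to 1.98, -0.69 to -0.30, 0.31 to 0.65, -1.34 to -1.06 and -0.15 to 0.13 for the 6 differences in the order of the report. The last of these was negative without replicate 1. The order of the 9 genes by mean differed in the read-based table and with protein-coding transcripts only. The cause of these turns was not tested beyond the alternatives themselves. The count of genes highest in replicate 1 was 5 in the read-based table and 6 under the other alternatives, while the share of detected genes ranged from 33.1 to 48.9%. Rescaling TPM without 3 rRNA-like genes and short features raised the median detected gene by 0.88, 0.82 and 0.78 (log2) in replicates 1, 2 and 3, and the 9 genes with it. Depth limits the short forms, which rest on few reads (26.8 for Zfp36l1-204 in replicate 1).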
